A study of Rattus norvegicus with 6 samples.

Results

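The neuromuscular junction genes examined here are 10 genes of the muscle acetylcholine receptor and of the machinery that gathers it under the motor nerve terminal: Chrna1, Chrnb1, Chrnd, Chrne, Chrng, Musk, Agrn, Dok7, Rapsn and Lrp4. They were chosen by gene symbol, and 9 of the 10 matched a row among the 30957 genes of the deposited table; expression of Chrng was not analysed here. RNA came from the flexor digitorum longus, a toe-flexing muscle of the hind limb, of wild-type Sprague-Dawley rats. Control muscle at 0 h (3 libraries) was set against muscle at 18 h of acute compartment syndrome (ACS, 3 libraries), a state in which pressure inside a closed muscle compartment limits blood flow. It was produced with a tight, barely elastic loop around the knee. The treatment label names ACS in both groups, so the groups were taken from titles, which match the source and time labels. The sources used here give neither age nor sex, nor say whether each library is a different rat, so p-values measure the spread between these libraries, which may be technical. No sham-ligated muscle at 18 h is among these groups, so time and ligation cannot be told apart.

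At the junction, acetylcholine released by the nerve opens a five-part receptor channel in the muscle membrane. Adult receptors hold the alpha (Chrna1), beta (Chrnb1), delta (Chrnd) and epsilon (Chrne) subunits, while fetal and denervated muscle uses gamma (Chrng) in place of epsilon. Agrin (Agrn) binds Lrp4, which activates the kinase MuSK (Musk) together with the adaptor Dok7, and rapsyn (Rapsn) anchors the receptors in a cluster. In rodents, cutting the nerve is known to raise transcripts of the alpha, gamma and delta subunits and of Musk along the whole fibre.

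Library totals ranged from 14340865 to 21003928 counts. ACS replicate 1 stood apart: genes of the mitochondrial chromosome took 43.4% of its counts, against 4.82% to 8.60% in the other 5 libraries. Each result is therefore also given without it where it matters. Muscle fibre transcripts were abundant in each library, with Acta1, the skeletal actin gene, at 17372 to 53967 CPM (CPM is the count scaled to library size, with TMM normalization factors). The fast myosin Myh1 measured 57520 ± 7887 and 63150 ± 34109 CPM in control and ACS muscle (SD, n = 3 each), and the slow myosin Myh7 2033 ± 216 and 1231 ± 398 CPM. The summed level of the 12 matched fibre markers was 143016 to 167184 CPM in control muscle and 91676, 129920 and 222798 CPM in ACS replicates 1, 2 and 3. In whole muscle, fewer cells of a type and less RNA per cell cannot be told apart.

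Promoter sequences are shown for 3 receptor subunit genes and for Musk, the member whose groups did not overlap. The 3 are examples of subunit genes that carry letters through which muscle and synaptic factors are known to act. The 300 bases run from 250 before to 50 after the gene start (RefSeq, rat build GRCr8, 5′ to 3′ on the strand of the gene). Capitals mark E-boxes (CANNTG, bound by myogenic factors such as MyoD and myogenin) and N-boxes (CCGGAA, bound by Ets factors and known for restricting subunit genes to synaptic nuclei), on either strand.
Chrna1: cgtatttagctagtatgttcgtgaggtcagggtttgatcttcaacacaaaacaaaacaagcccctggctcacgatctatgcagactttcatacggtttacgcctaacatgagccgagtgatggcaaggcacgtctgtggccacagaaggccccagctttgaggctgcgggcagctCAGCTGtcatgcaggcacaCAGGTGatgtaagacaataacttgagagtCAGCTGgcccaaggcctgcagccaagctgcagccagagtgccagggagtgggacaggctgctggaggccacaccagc
Chrnd: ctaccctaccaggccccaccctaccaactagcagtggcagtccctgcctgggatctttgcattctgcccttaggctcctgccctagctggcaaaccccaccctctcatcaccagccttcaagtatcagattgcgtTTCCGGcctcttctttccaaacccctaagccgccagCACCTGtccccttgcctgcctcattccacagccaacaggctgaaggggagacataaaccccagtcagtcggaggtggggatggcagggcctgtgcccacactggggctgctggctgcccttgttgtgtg
Chrne: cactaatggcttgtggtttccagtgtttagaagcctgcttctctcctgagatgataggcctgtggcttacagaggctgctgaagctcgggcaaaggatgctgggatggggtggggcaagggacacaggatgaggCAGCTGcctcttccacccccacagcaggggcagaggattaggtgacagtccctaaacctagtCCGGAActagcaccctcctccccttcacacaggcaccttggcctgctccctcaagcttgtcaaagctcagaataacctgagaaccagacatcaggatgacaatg
Musk: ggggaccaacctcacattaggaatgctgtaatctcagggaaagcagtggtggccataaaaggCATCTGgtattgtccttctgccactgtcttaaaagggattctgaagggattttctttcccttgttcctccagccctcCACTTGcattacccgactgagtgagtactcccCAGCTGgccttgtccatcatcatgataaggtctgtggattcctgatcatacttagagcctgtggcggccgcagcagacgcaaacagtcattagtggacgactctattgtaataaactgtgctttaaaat

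The Chrna1 promoter held 3 E-boxes and no N-box, that of Musk also 3 and no N-box, and those of Chrnd and Chrne held 1 E-box and 1 N-box each. Those of Chrnb1 and Chrng, not shown, held 3 and 4 E-boxes and no N-box. Of the 10 genes, 8 had a promoter sequence, that of Chrng among them, of which 7 held an E-box and 2 an N-box. Among 33469 rat promoters of the same length 72.1% held an E-box and 15% an N-box, so E-boxes are common letters. The version CAGCTG, which is contained in the E-box count, stood in 5 of the 8, again with Chrng, and in 15.1% of all promoters. These matches describe the letters only and do not show binding.

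Of the receptor subunits, Chrna1 (ENSRNOG00000018286, chromosome 3, 60445666 to 60460724, minus strand, build Rnor 6.0), which carries most of the acetylcholine binding site, measured 7.61, 7.01 and 3.76 CPM in control replicates 1, 2 and 3. In ACS muscle it measured 3.93, 3.50 and 6.03 CPM. The groups overlapped, because control replicate 3 lay as low as the lower ACS libraries. The log2 fold change was -0.45 (SE 0.392), with a 95% interval from -1.34 to 0.45 (edgeR's quasi-likelihood test, adjusted p = 0.522).

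Chrnb1 (ENSRNOG00000014698, chromosome 10, 56390671 to 56403188, minus strand), the structural beta subunit, measured 57.7, 55.2 and 68.7 CPM in control and 37.3, 60.3 and 52.9 CPM in ACS muscle. ACS replicates 2 and 3 lay near the control values and replicate 1 below them. edgeR gave a log2 fold change of -0.27 (SE 0.263, interval -0.87 to 0.33, edgeR adjusted p = 0.564), or -0.10 without ACS replicate 1. The neighbouring gene Fgf11 lies 68 bases away on the same strand, so reads at that border may be shared.

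Chrnd (ENSRNOG00000019527, chromosome 9, 94286550 to 94294968, plus strand), the delta subunit that completes a binding site with alpha, measured 12.2, 10.2 and 4.13 CPM in control and 23.7, 5.97 and 4.24 CPM in ACS muscle. Only ACS replicate 1 was above all controls, at 2.67 times the control mean, while replicates 2 and 3 were at 0.674 and 0.479 times. The log2 fold change was 0.34 (SE 0.666, interval -1.18 to 1.86, edgeR adjusted p = 0.784) with all libraries and -0.80 (interval -1.84 to 0.25, adjusted p = 0.342) without ACS replicate 1, so the sign rests on that library. The sign was also negative with scaling by library totals, with both limma tests and without control replicate 3.

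Chrne (ENSRNOG00000003777, chromosome 10, 57238946 to 57243435, minus strand), the adult epsilon subunit made by nuclei beneath the nerve terminal, measured 11.9, 14.9 and 9.50 CPM in control and 6.46, 6.89 and 12.6 CPM in ACS muscle. ACS replicates 1 and 2 lay below every control and replicate 3 among them. This was a log2 fold change of -0.48 (SE 0.354, interval -1.29 to 0.33, edgeR adjusted p = 0.445). A gene on the opposite strand, LOC687707, lies within Chrne but holds 6 counts in all libraries together. Mink1, a kinase gene 415 bases away on the opposite strand, had 1084, 1067 and 1222 counts in control and 598, 629 and 684 in ACS libraries. Since the strand setting of the counting is not known, reads shared at that border were not tested for.

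The gamma subunit was to be set against epsilon as a readout of denervation; without values for Chrng that ratio was not computed. The makeup of the other 4 subunit genes was compared in its place, on FPKM (counts per gene length and library total, which allow levels of different genes to be compared). This comparison was chosen after the values were seen, and the shares were not tested. In control muscle Chrnb1 made up 58.5%, 57.2% and 75.5% of the summed subunit FPKM, and in ACS muscle 45.4%, 74.0% and 64.5%. Chrne made up 15.3%, 19.6% and 13.3% in control and 10.01%, 10.8% and 19.5% in ACS muscle.

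Chrnd took 38.7% of the subunit FPKM in ACS replicate 1, against 9.84% and 6.94% in replicates 2 and 3 and 16.7%, 14.2% and 6.09% in control. The ratio of Chrnd to Chrne was thus 3.86 in ACS replicate 1 and 0.356 to 1.09 in the other 5 libraries. The ratio of Chrne to Chrna1 varied less, from 1.61 to 2.61 in control and from 1.69 to 2.15 in ACS muscle.

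**Figure D1:**
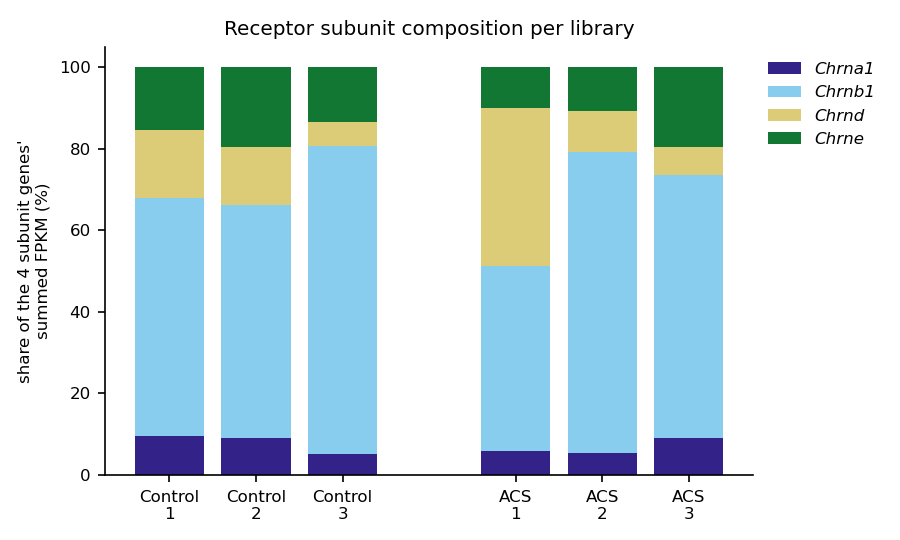
Share of each receptor subunit gene in the summed FPKM of Chrna1, Chrnb1, Chrnd and Chrne (y axis, percent) in each of the 6 libraries (x axis). Chrnb1 is the largest share in all 6, and the Chrnd share reaches 38.7% in ACS replicate 1.

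Of the agrin receptor complex, Musk (ENSRNOG00000033567, chromosome 5, 75392790 to 75498694, plus strand), the kinase that starts receptor clustering, measured 2.39, 2.76 and 2.89 CPM in control and 3.84, 9.78 and 5.19 CPM in ACS muscle. Every ACS library was above every control library, the only such case among the 9 genes, whereas 31.5% of all 12873 tested genes had groups that did not overlap in either direction. The log2 fold change was 1.23 (SE 0.413, interval 0.29 to 2.17, unadjusted p = 0.0162 and adjusted p = 0.118 by edgeR), so Musk did not pass the threshold of 0.05. Without ACS replicate 1 it passed, at 1.48 (SE 0.346, interval 0.69 to 2.26, adjusted p = 0.0395), where 6.68% of all genes passed.

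The level of Musk in single libraries depended on scaling. On FPKM, where the mitochondrial counts of ACS replicate 1 enter the divisor, Musk measured 0.911, 1.08 and 1.17 in control and 1.00, 3.43 and 1.72 in ACS muscle, so the groups overlapped through replicate 1. With library totals in place of TMM factors its log2 fold change was 0.96, and without ACS replicate 2, its highest library, 0.72. Relative to Chrne in the same library, a ratio free of that divisor and chosen after the values were seen, Musk stood at log2 FPKM ratios of -2.99, -3.11 and -2.39 in control and -1.43, -0.17 and -1.95 in ACS muscle. All 3 ACS libraries were above all controls in this ratio, which depends on both genes. On CPM, Chrne itself stood at 0.54, 0.57 and 1.04 times its control mean in ACS replicates 1, 2 and 3. In ACS replicate 1 the FPKM of Musk lay within the control range. An exact permutation test gave p = 0.1 for the ratio, the lowest that 3 against 3 libraries can give. Since the ratio was picked with its groups already seen apart, this p was fixed beforehand and decides nothing. The exact permutation test also gave p = 0.1 for Musk to Rapsn, likewise without overlap. For Lrp4 to Agrn and for Chrnd, Chrna1 and Chrnb1 to Chrne the groups overlapped, with exact permutation test p from 0.4 to 0.8.

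Lrp4 (ENSRNOG00000015285, chromosome 3, 80362858 to 80416679, plus strand), the receptor for agrin, measured 61.2, 36.1 and 52.1 CPM in control and 33.3, 89.2 and 70.2 CPM in ACS muscle. ACS replicates 2 and 3 lay above the controls and replicate 1 below them. The fitted log2 fold change was 0.37 (SE 0.381, interval -0.50 to 1.24, edgeR adjusted p = 0.589), 0.68 without ACS replicate 1 (interval 0.06 to 1.29, adjusted p = 0.177) and -0.02 by limma on log2(FPKM + 1).

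Agrn (ENSRNOG00000020205, chromosome 5, 173589819 to 173622645, minus strand), the nerve- and muscle-derived organiser that also lies in vessel basement membranes, measured 30.5, 18.5 and 23.1 CPM in control and 21.0, 17.3 and 11.9 CPM in ACS muscle. ACS replicates 2 and 3 were below every control and replicate 1 among them. The log2 fold change was -0.53 (SE 0.311, interval -1.24 to 0.18, edgeR adjusted p = 0.339), and -0.72 without ACS replicate 1 (interval -1.40 to -0.04, adjusted p = 0.189). The counts do not separate the nerve splice form of agrin from the others.

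Dok7 (ENSRNOG00000022419, chromosome 14, 80926654 to 80958478, minus strand), the adaptor that activates MuSK from inside the fibre, was nearly even in control muscle, at 23.9, 23.7 and 24.0 CPM. In ACS replicates 1, 2 and 3 it measured 2.81, 34.9 and 22.8 CPM. Replicate 1 was thus 8.49-fold below the control mean, with 30 counts, and the other ACS libraries were 1.46 and 0.955 times that mean. By edgeR the log2 fold change was -0.24 (SE 0.666, interval -1.75 to 1.28, edgeR adjusted p = 0.857), and 0.27 (interval -0.30 to 0.84) without replicate 1.

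Rapsn (ENSRNOG00000011208, chromosome 3, 79860179 to 79869524, plus strand), the scaffold that holds receptors together, measured 15.3, 15.6 and 10.5 CPM in control and 3.93, 8.13 and 12.5 CPM in ACS muscle. ACS replicates 1 and 2 were below every control and replicate 3 among them. The log2 fold change was -0.75 (SE 0.420, interval -1.70 to 0.21, edgeR adjusted p = 0.316), and -0.43 without ACS replicate 1.

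**Figure D2:**
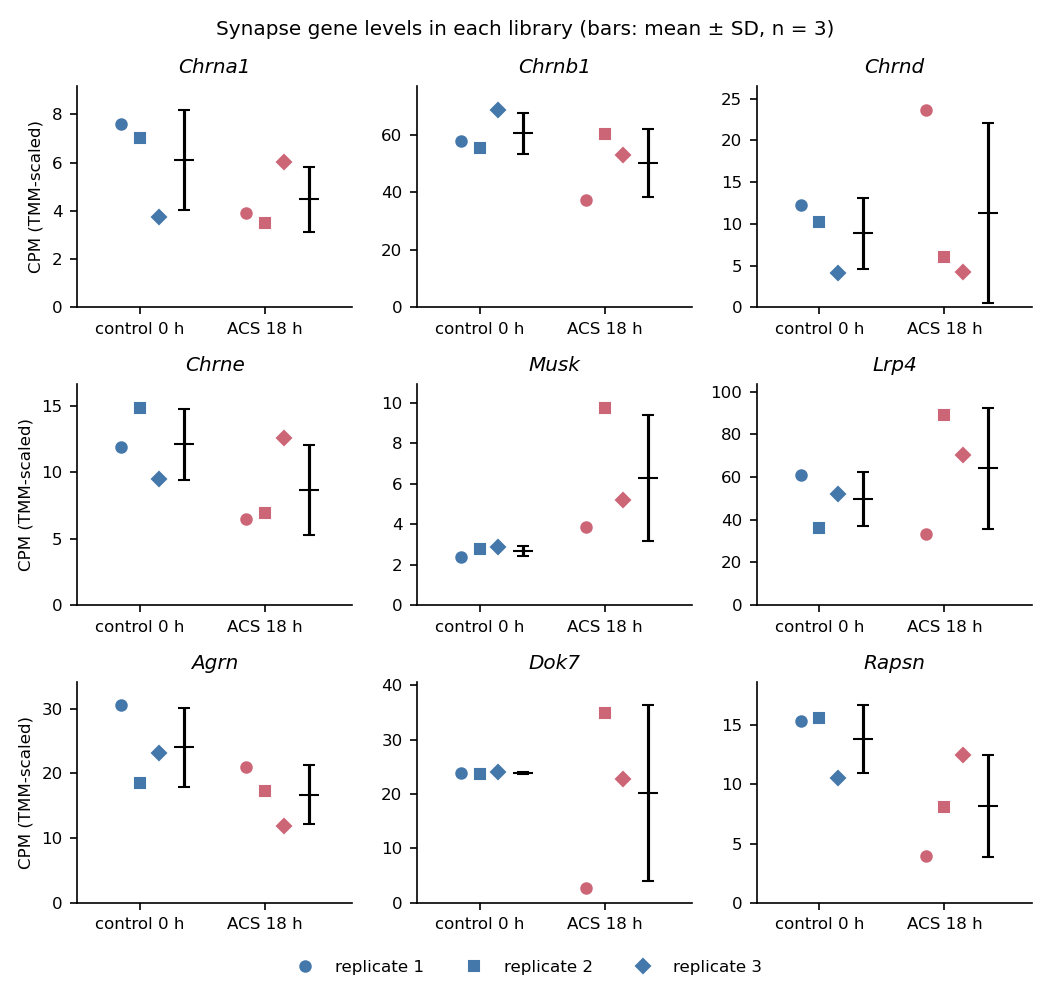
Levels of the 9 measured junction genes (y axes, TMM-scaled CPM) in each control and ACS library (points, shaped by replicate number), with the mean and SD of each group (black). Musk is the only panel in which all ACS points lie above all control points; in Dok7 and Chrnd, ACS replicate 1 lies far from the other ACS libraries.

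Across the 9 genes edgeR called 0 at an adjusted p under 0.05, against 4.14% of all tested genes (3.43% higher and 0.707% lower). DESeq2, limma-voom and limma on log2 FPKM also called 0, against 11.7%, 2.59% and 1.89% of the genes they tested. At an unadjusted p under 0.05 there was 1 of 9, Musk, against 23.5% of all genes (15.5% higher and 7.98% lower). Groups that did not overlap were 16.7% of all genes for higher and 14.8% for lower ACS values. On FPKM, without TMM factors, the groups of Chrnb1, Agrn and Rapsn did not overlap, with lower ACS values, while on the CPM scale they overlapped. On FPKM 27.3% of all tested genes had such lower values and 9.47% higher ones. All 9 passed the filter on low counts, 3 had a positive and 6 a negative log2 fold change, and the median was -0.27 against -0.01 over all genes tested. For Chrne the interval ran from 0.411 to 1.26 times the control level, and for Chrna1 from 0.395 to 1.36 times.

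**Figure D3:**
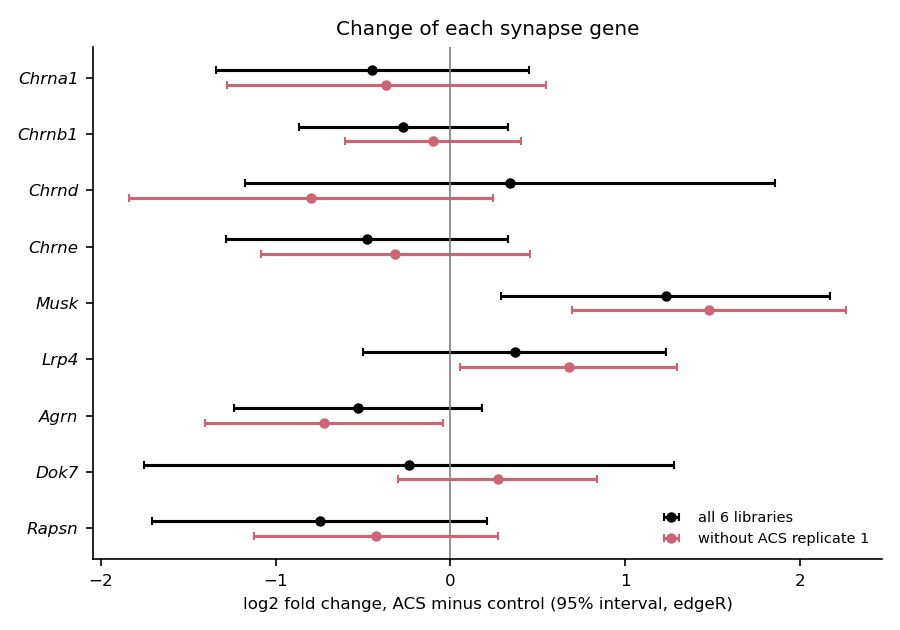
Log2 fold change of each junction gene (x axis, ACS minus control) with its 95% interval from edgeR, with all 6 libraries (black) and without ACS replicate 1 (red). With all libraries the interval of Musk alone lies above 0, from 0.29 to 2.17, and the sign of Chrnd and Dok7 changes without ACS replicate 1.

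Per gene length, the order of levels in control muscle was led by Chrnb1 at 29.9 ± 4.29 FPKM (SD, n = 3) and Dok7 at 11.01 ± 0.350 FPKM, whose ranges were separate from each other and from the next gene. Chrne (7.56 ± 1.62), Lrp4 (7.05 ± 1.72), Rapsn (6.80 ± 1.27), Chrnd (5.80 ± 2.65), Chrna1 (3.71 ± 1.18) and Agrn (2.91 ± 0.678 FPKM) followed, and each overlapped its neighbour in this order. Musk was lowest, at 1.05 ± 0.131 FPKM, apart from Agrn. In ACS muscle Chrnb1 again had the highest mean, at 20.3 ± 7.32 FPKM, and every pair of neighbours overlapped.

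By likeness of log2 CPM over the 6 libraries, the genes closest to Chrne among 11046 with a symbol and at least 1 CPM on average were Cdkal1 (Pearson r = 0.996), Anapc1 (0.990) and Vps41 (0.988). This ranking describes 6 points that share libraries and depth, and it was picked from all of these genes.

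The other genes of junction assembly gave a similar count. Of 24 listed genes downstream of MuSK, of neuregulin signalling and of the Ets factors, 20 were tested and edgeR called 0, with 3 at an unadjusted p under 0.05 and 0 called by DESeq2, limma-voom or limma on FPKM. Of all tested genes, edgeR called 4.14% and 23.5% had an unadjusted p under 0.05. The median log2 fold change of this list was -0.25. The most abundant, Ptpn11, a phosphatase that binds signalling receptors, measured 335 ± 36.4 and 373 ± 113 CPM (SD, n = 3 each). Without ACS replicate 3, where 12.7% of all genes were called, this list had 2 calls, named after their values were seen: Gabpb1, a subunit of an Ets factor complex that binds N-boxes (log2 fold change 1.86, adjusted p = 0.0115), and Wnt11, a secreted ligand (-1.96, adjusted p = 0.0484). With all libraries Gabpb1 was at 1.45 (adjusted p = 0.127).

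Of 24 genes of the synaptic basal lamina and the scaffold under the membrane, 21 were tested and edgeR called 0, with 3 at an unadjusted p under 0.05 and a median of -0.04. The shares of all tested genes were again 4.14% called and 23.5% at an unadjusted p under 0.05. The limma tests also called 0, and DESeq2 called 1, Syne1, a nuclear envelope protein involved in anchoring nuclei at the synapse (log2 fold change -0.90, adjusted p = 0.00937). Without ACS replicate 3 edgeR called Macf1, a linker of microtubules to actin (1.05, adjusted p = 0.0462). Scn4a, the sodium channel of the adult fibre and the most abundant of this list, measured 601 ± 102 and 567 ± 236 CPM (edgeR adjusted p = 0.916). Ache, the acetylcholinesterase that ends transmission and a gene named after its values were seen, measured 69.9, 54.2 and 39.9 CPM in control and 38.5, 71.0 and 80.7 CPM in ACS muscle, with overlapping groups.

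Genes known to respond to denervation in rodent muscle were split. Of 25 listed, 23 were tested; 7 rose and 1 fell by edgeR, against 3.43% and 0.707% of all genes, and the median log2 fold change was 0.80. The list holds genes of several stress and wasting responses, such as Gadd45a and Cdkn1a, and was assembled with earlier results of these data known, so its count is no independent evidence of a direction.

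Runx1, a transcription factor of denervated fibres and of blood cells, measured 4.97, 1.94 and 3.97 CPM in control and 175, 80.0 and 20.2 CPM in ACS muscle, and it rose by 4.66 on the log2 scale (SE 0.772, edgeR adjusted p = 0.0232; 3.78 without ACS replicate 1). Trim63, the ubiquitin ligase MuRF1 of muscle wasting, averaged 191 CPM in control libraries (SD 10.6, n = 3), against 1313 CPM after 18 h of ACS (SD 635, n = 3). It rose by 2.79 on the log2 scale (SE 0.403, edgeR adjusted p = 0.0154; 2.99 without ACS replicate 1). For both genes the groups did not overlap, with all ACS libraries above all controls, as in 16.7% of all tested genes. A further listed ubiquitin ligase, Fbxo32, was named after its values were seen. It measured 395, 392 and 485 CPM in control and 692, 1353 and 164 CPM in ACS muscle. Its groups overlapped (log2 fold change 0.80, edgeR adjusted p = 0.470). Of the 23 tested genes of the list, 16 had a positive and 7 a negative log2 fold change.

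Further calls, named after their values were seen, were increases of Gadd45a, a stress-response protein (log2 fold change 5.02, or 3.54 without ACS replicate 1), Ankrd1, a stretch-responsive sarcomere protein (5.55, or 4.04), Ampd3, an AMP deaminase (3.42, or 3.08) and Cdkn1a, a cell cycle inhibitor (3.01, or 3.02). Myod1, the myogenic factor, fell from 47.6 ± 5.70 to 19.6 ± 5.29 CPM (log2 fold change -1.28, SE 0.275, edgeR adjusted p = 0.0439).

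Other members of this list that are closely tied to synaptic genes did not pass. Myog, the factor that acts on subunit E-boxes, measured 9.27, 7.74 and 6.28 CPM in control and 33.7, 6.23 and 4.35 CPM in ACS muscle. Its high value stood in ACS replicate 1, the library with the highest Chrnd, while replicates 2 and 3 were below the lowest control. edgeR gave a log2 fold change of 0.92 (SE 0.698, edgeR adjusted p = 0.459), and -0.55 without replicate 1. In ACS replicate 1, Chrna1, Chrne and Musk, whose promoters shown above also hold E-boxes, stood at 0.642, 0.535 and 1.43 times their control means. A link between Myog and these genes or Chrnd was not tested.

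Hdac4, a deacetylase that passes the denervation signal on to Myog, measured 43.8, 34.1 and 29.5 CPM in control and 51.1, 100.1 and 71.1 CPM in ACS muscle, with no overlap. Its log2 fold change was 1.05 (SE 0.311, edgeR adjusted p = 0.0876), and 1.26 without ACS replicate 1 (adjusted p = 0.0285). Hdac5 and Hdac9, listed deacetylases named after their values were seen, went the other way, also without overlap. Hdac5 went from 75.55 ± 10.64 to 28.47 ± 12.17 CPM (log2 fold change -1.405, edgeR adjusted p = 0.0633). Hdac9 went from 22.5 ± 5.91 to 6.90 ± 6.72 CPM (-1.70, edgeR adjusted p = 0.143). DESeq2 called Hdac4, Hdac5 and Hdac9. Of all tested genes, 16.7% were higher and 14.8% lower in ACS muscle without overlap. Ncam1, the adhesion molecule that spreads over denervated fibres, measured 23.5 ± 9.36 and 25.2 ± 5.62 CPM (edgeR adjusted p = 0.888). Dach2, a repressor of Myog, had 3 counts in the 6 libraries together and was not tested.

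The number of these calls changed when single libraries were left out. Leaving out control replicate 1, 2 or 3 left 0 genes called in the denervation list and 0 in the whole table, while 12 of its 23 genes kept an unadjusted p under 0.05 each time. Without ACS replicates 1, 2 and 3 the list had 11, 5 and 12 calls, and 6.68%, 2.27% and 12.7% of all genes were called. On CPM the groups of Musk, Runx1 and Trim63 did not overlap, so any split of the libraries shows higher ACS values. A split by "ji" in the description, with 1 such library per group, is thus no further evidence. Musk was at 5.19 against 2.89 CPM in the "ji" libraries and at 3.84 and 9.78 against 2.39 and 2.76 CPM in the rest.

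**Figure D4:**
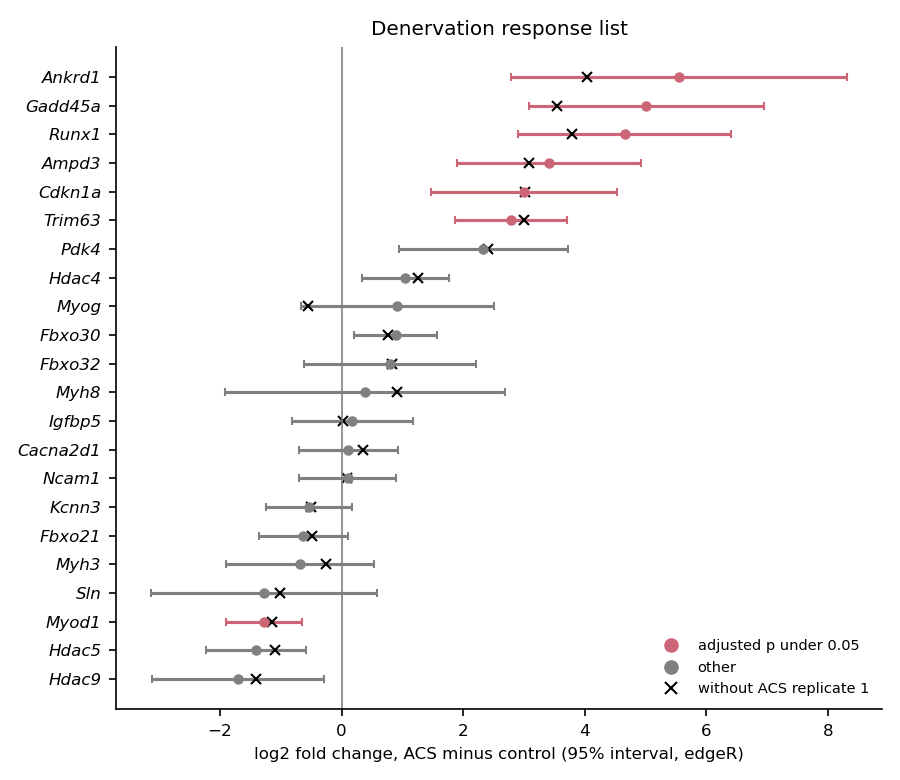
Log2 fold change (x axis, ACS minus control) of 22 of the 23 tested genes of the denervation response list, with 95% intervals from edgeR, red where the adjusted p is under 0.05, and crosses for the value without ACS replicate 1. The 6 plotted genes that rose lie between 2.79 and 5.55, and Myod1 lies at -1.28.

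Acetylcholine receptor genes outside the muscle receptor were almost without counts. None of the 16 nicotinic and muscarinic genes listed passed the filter, 9 were listed at 0 in all 6 libraries, and the 16 summed to 114 counts. The highest, Chrna4, a neuronal subunit, had 42. A listed 0 need not mean absence in this table, since Myh9, the broadly expressed non-muscle myosin, is also listed at 0 throughout.

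Markers of the cells that meet at the junction were read from the same fit, in which edgeR called 4.14% of all tested genes. An unadjusted p under 0.05 was found for 23.5%. Of 15 Schwann cell markers, 13 were tested and edgeR called 0, with 3 at an unadjusted p under 0.05. DESeq2 called 2, limma-voom 0 and limma on FPKM 0. The summed level was 123 to 161 CPM in control and 125, 78.4 and 98.0 CPM in ACS muscle. Motor axon markers summed to 2.64 to 5.22 CPM in control and 13.5, 3.86 and 4.47 CPM in ACS muscle, with 5 of 14 matched genes at 0 in all libraries and Stmn2, a growth-cone protein and the most abundant of the 3 tested, at 1.47 ± 0.234 and 2.14 ± 1.77 CPM. Of these 3 edgeR called 0, with 1 at an unadjusted p under 0.05, limma-voom called 0 and DESeq2 called 1. That gene, Tubb3, a tubulin named after its values were seen, measured 0.293, 0.726 and 0.206 CPM in control and 5.62, 1.96 and 1.00 CPM in ACS muscle. Its groups did not overlap (log2 fold change 2.78, SE 0.769, edgeR adjusted p = 0.0751, DESeq2 adjusted p = 0.00819), and edgeR called it without ACS replicate 3 (adjusted p = 0.0309). The cell bodies that hold most axonal mRNA lie outside the muscle.

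Markers of infiltrating cells were highest in ACS replicate 1. Macrophage markers summed to 61.5 to 94.8 CPM in control and to 1912, 216 and 149 CPM in ACS replicates 1, 2 and 3, and neutrophil markers to 1.69 to 6.98 CPM and to 457, 32.5 and 94.3 CPM. Of 14 tested macrophage markers 2 rose by edgeR, and 7 of 7 tested neutrophil markers rose, of 15 listed in each. Of all tested genes 3.43% rose. A marker could pass the filter through the ACS libraries alone. At an unadjusted p under 0.05 by edgeR there were 12 macrophage and 7 neutrophil markers, against 23.5% of all genes. DESeq2 called 8 and 7, limma-voom 0 and 0, and limma on FPKM 0 and 1. A single gene held 21617 of the 32505 macrophage marker counts over the 6 libraries. The named neutrophil genes were Mmp8, a collagenase (log2 fold change 5.89, or 4.85 without ACS replicate 1), Cxcr2, a chemokine receptor (5.70, or 4.05), and S100a8, a calcium-binding protein of granulocytes (5.01, or 4.27). The macrophage calls were Itgam, an integrin that neutrophils also carry (4.03, or 2.22), and Gpnmb (2.50, or 1.99). Fibroblast markers summed to 713 to 1099 CPM in control and 2355 to 3000 CPM in ACS muscle, with 0 of 7 called by edgeR. Endothelial markers summed to 355 to 539 CPM in control and to 763, 487 and 279 CPM in ACS replicates 1, 2 and 3, with 0 of 11 called. At an unadjusted p under 0.05 by edgeR there were 4 fibroblast markers and 1 endothelial marker. The most abundant were Col1a1, a collagen chain (357 ± 215 and 1310 ± 478 CPM), and Cdh5, a cadherin of vessel walls (86.3 ± 18.2 and 152 ± 107 CPM). DESeq2 called 2 and 0, limma-voom 0 and 0 and limma on FPKM 0 and 0. Without ACS replicate 1, where 6.68% of all genes were called, edgeR called 2 endothelial markers, both lower and named after their values were seen. They were Emcn (log2 fold change -1.79, adjusted p = 0.0094) and Tie1 (-1.495, adjusted p = 0.0391). The endothelial median was then -0.32, against 0.09 with all libraries. The 1 fibroblast marker called in that fit, Col1a1, was higher (2.145, adjusted p = 0.0466). Of 10 tested satellite cell markers 2 rose: Sdc4, a surface proteoglycan that other cells also carry (43.3 ± 15.6 to 341 ± 156 CPM), and Myf5, a myogenic factor (0.944 ± 0.377 to 4.34 ± 1.18 CPM). Of the 10, 7 had a negative log2 fold change, none of them called, and the median was -0.23; Pax7, the defining factor of these cells and named after its values were seen, was at -0.79 (edgeR adjusted p = 0.356). The part of these cells in the levels of Musk, Chrnd, Dok7, Agrn, Runx1 and the other genes above was not tested.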

How the data were processed

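RNA sequencing of rRNA-depleted total RNA was read from 1 table holding 6 libraries, with 3 for control and 3 for ACS muscle, of 14340865 to 21003928 counts each. The authors deposited whole-number counts per gene and FPKM values. Alignment used HISAT2 2.0.4 and StringTie 1.3.0 is also named, with the rat build Rnor 6.0, per the submitters' processing notes; the sources used here do not name the counting tool, the strand setting or the treatment of multiply mapped reads. Deposited FPKM values equal the count divided by gene length and library total within 0.1% in 14471 of 14471 genes checked, so they carry no correction for a few genes that take a large share.

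Of 30957 genes, 12873 passed the filter on low counts (filterByExpr, minimum count 10 and minimum total 15). They were fitted with edgeR 4.0.16 (TMM factors, quasi-likelihood test, R 4.3.3), with Benjamini-Hochberg adjustment over all genes tested and a threshold of 0.05. The common biological coefficient of variation was 0.381. Alternatives were DESeq2 1.42.0, limma-voom and limma 3.58.1 on log2(FPKM + 1), other scalings and filters, a replicate block, a covariate for libraries with "ji" in their description, and leaving out libraries. Scaling to the fibre marker list was chosen after seeing the data. Intervals are at 95%.

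The members and gene lists were chosen with earlier results of these data known. Named genes were the members, up to 3 called genes of a list by smallest adjusted p or its most abundant tested gene where none passed, fibre genes, and Myog, Ncam1, Runx1, Dach2 and Hdac4; others are marked where named. Some genes that this rule names are not reported here, though counts over lists include them. Symbols were matched to the table and then to RefSeq synonyms. The planned test of the Chrng to Chrne ratio was not run, since Chrng matched no row and its expression was not analysed here.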

Additional observations from a re-analysis of the deposited data

How the results depend on the processing

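The count of genes called in the whole table, 533 (442 higher, 91 lower), was 1744 by DESeq2, 333 by limma-voom, 209 by limma on log2(FPKM + 1), 908 with no filter, 280 with a term for the "ji" libraries, 201 without both of them and 108 when scaled to fibre markers, and 0 to 1684 when single libraries were left out. The higher and lower calls were 345 and 228 with library totals, 135 and 74 on FPKM and 102 and 6 with fibre scaling, which moved the median log2 fold change of all genes to -0.32, -0.30 and 0.30. Of the 9 junction genes 0 to 1 were called without single libraries (Musk without ACS replicate 1), and 0 under the other alternatives. Over 17 alternatives Musk stayed positive, from 0.50 to 1.51, with adjusted p from 0.0395 to 0.357. Assembly genes called were 0 to 2 and scaffold genes 0 to 1 without single libraries, and DESeq2 called 1 scaffold gene. Denervation genes called, 8 with all libraries, were 5 by limma-voom, 4 on FPKM, 5 with the replicate block, 5 with the "ji" term, 2 with fibre scaling and 0 to 12 without single libraries. Log2 fold changes that changed sign with library totals were Chrnd (-0.10), Ptpn11 (-0.13), Myh1 (-0.16) and Ncam1 (-0.20), and on FPKM Chrnd (-0.20), Lrp4 (-0.0161), Ptpn11 (-0.21), Myh1 (-0.31) and Ncam1 (-0.14). They did so by limma-voom for Chrnd (-0.0106) and Stmn2 (-0.0166), without both "ji" libraries for Ptpn11 (-0.10), Myh1 (-0.34) and Ncam1 (-0.0245), and with fibre scaling for Scn4a (0.12). Leaving out single libraries gave ranges of -0.80 to 0.73 for Chrnd, -0.90 to 0.27 for Dok7, -0.0697 to 0.37 for Ptpn11, -0.31 to 0.22 for Scn4a, -0.29 to 0.96 for Stmn2, -0.41 to 0.36 for Myh1, -0.55 to 1.34 for Myog and -0.22 to 0.35 for Ncam1. The cause was not tested. The replicate block gave 505 calls, 0 among the junction genes. Deviations of libraries with the same number correlated at -0.06, 0.01 and 0.04, and those of the other pairs at -0.07 to 0.06. Such values cannot decide whether libraries with the same number are paired. The libraries numbered 3 are both "ji" libraries. The Chrng to Chrne ratio and its alternatives were not run. With 3 libraries a group, the width of the intervals limits what the junction genes can show.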
